A study of Arabidopsis thaliana with 2 samples.

Results

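Transposable element genes on the chromosome arms of Arabidopsis thaliana were followed in mature pollen of the ecotypes Col-0 and Ler-0. They are the loci annotated as transposable element genes whose start lies outside a window around each centromere: 11.5 to 17.7 Mb on chromosome 1, 1.1 to 7.2 Mb on chromosome 2, 10.3 to 17.3 Mb on chromosome 3, 1.5 to 6.3 Mb on chromosome 4 and 9.0 to 16.0 Mb on chromosome 5. The rule gave 555 of 3895 transposable element genes and of 33322 listed nuclear loci. The other 3340 lie within the windows and are called pericentromeric below. The rule uses no measured RNA value.

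RNA of whole pollen was sequenced from 1 library of Col-0, the ecotype of the reference genome, and 1 library of Ler-0, another laboratory ecotype. The labels give no mutation, transgene or treatment for either. Both sets of plants began on MS plates, moved to soil and were kept in long days, and the pollen was shaken out of open flowers and passed through a fine mesh. With 1 library each there is no replicate check of any difference, and no test was made. Effects of the ecotype, of the batch of plants and of the sample's handling cannot be told apart.

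Transposable elements are mobile DNA that plants keep silent with DNA methylation, histone marks and small RNAs. Most copies in Arabidopsis lie around the centromeres, under CG methylation kept by MET1 and the chromatin remodeller DDM1, while copies on the arms lie among genes and are often short and held by RNA-directed DNA methylation. In pollen the vegetative cell, which grows the tube and leaves no DNA to the embryo, loosens this silencing, and transposon RNA there is turned into small RNAs. The microRNA miR845 is known to target LTR retrotransposons in pollen at the primer binding site, the stretch that pairs with the initiator methionine tRNA to start reverse transcription.

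The sequences that tie some, but not all, of the most abundant arm loci to that site are given first. They come from the RefSeq assembly TAIR10.1, whose start, end and strand equal those of the deposited tables for 555 of 555 members. The mature microRNAs are shown with the seed, bases 2 to 8, in capitals. They lie on the minus strand of chromosome 4, miR845a at chr4:12217457-12217477 and miR845b at chr4:12214086-12214107.
miR845a: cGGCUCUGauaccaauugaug
miR845b: uCGCUCUGauaccaaauugaug

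The motif TGGTATCAGAGC, complementary to bases 3 to 14 of both microRNAs and to the 3′ end of that tRNA, was searched on both strands from 1000 bases before to 200 bases after the start of each locus. For 4 loci that come up again below, the 70 bases before the locus and its first 20 are shown in the locus's own direction, with the motif in capitals. AT1G50810 (chr1:18828798-18828887, plus strand) and AT1G31210 (chr1:11152482-11152571, minus strand) lie on chromosome 1, AT3G60565 (chr3:22389887-22389976, minus strand) on chromosome 3 and AT2G29165 (chr2:12541445-12541534, minus strand) on chromosome 2.
AT1G50810: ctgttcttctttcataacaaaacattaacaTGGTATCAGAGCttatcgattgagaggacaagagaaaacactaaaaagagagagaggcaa
AT1G31210: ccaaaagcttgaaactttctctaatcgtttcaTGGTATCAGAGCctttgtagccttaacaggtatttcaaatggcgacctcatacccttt
AT3G60565: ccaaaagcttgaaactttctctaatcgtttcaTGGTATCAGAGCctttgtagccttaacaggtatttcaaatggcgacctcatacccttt
AT2G29165: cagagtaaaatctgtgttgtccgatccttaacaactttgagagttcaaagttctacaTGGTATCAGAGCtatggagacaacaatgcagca

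On the locus's own strand the motif was found at 77 of 555 arm loci (13.9%) and on either strand at 80 (14.4%). The same window held it on the own strand at 5.57% of pericentromeric transposable element genes, 0.876% of all listed loci and 0.0882% of protein-coding loci. Its median place was 63 bases before the annotated start, and 66 of the 77 loci also had flanking direct repeats, as LTR retrotransposons do. Direct repeats were taken as at least 100 bases at 85% identity or more within 6000 bases of both ends, and 139 of the 555 loci had them. A match describes the letters in the window and is not a measured binding or cleavage site.

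Most arm loci were almost without reads in both libraries, and a minority carried nearly all the RNA. FPKM, the reads at a locus scaled by its length and by the library's total, was 0 at 53 loci in Col-0 against 20 in Ler-0, with 13 at 0 in both. It was above 0 and under 0.1 at 328 and 272 loci, from 0.1 to 1 at 121 and 195, from 1 to 10 at 44 and 55, from 10 to 100 at 6 and 11, and 100 or more at 3 and 2. The median over all 555 was 0.0471 FPKM in Col-0 against 0.0874 in Ler-0. At a locus of 1 kb 3 reads amount to 0.0392 FPKM in Col-0 or 0.0337 in Ler-0, so the median locus rested on few reads.

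A locus is called expressed at FPKM 1 or more in either library. By that measure 84 of the 555 arm loci were expressed (15.1%), against 7.87% of pericentromeric transposable element genes and 28.7% of all listed loci. FPKM was 1 or more at 53 in Col-0, at 68 in Ler-0 and at 37 in both. In whole pollen, fewer cells of a type and less RNA per cell cannot be told apart.

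The arm loci held 0.282% of all reads in Col-0 (216070 reads, exact 95% interval 0.281% to 0.284%) against 0.239% in Ler-0 (213002 reads, 0.238% to 0.240%). The pericentromeric loci went the other way, with 0.198% in Col-0 against 0.501% in Ler-0. Intervals on shares and FPKM ratios are binomial (Clopper-Pearson) and those on FPKM Poisson, and all cover counting error only. The arm share rested on few loci: the 4 with most reads held 79.8% of the arm reads in Col-0 against 62.5% in Ler-0. AT1G50810 and Sadhu4-2 (AT1G03420) were among the 4 in both libraries, with AT3G60565 and AT1G31210 beside them in Col-0. In Ler-0 the remaining places were held by AT2G01029 and AT2G29165. Over the arm loci that have no near-identical copy, a copy being a locus that matches at 95% identity or more over at least 50% of the length, the order turned, with 0.0553% of all reads in Col-0 against 0.0878% in Ler-0.

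More of the expressed arm loci stood higher in the Ler-0 library than in Col-0. The measure is log2 of (Ler-0 FPKM + 1) divided by (Col-0 FPKM + 1), shifted by 0.06 so that the 6656 loci with FPKM 1 or more in each library have a median of 0. Of the 84 expressed arm loci 57 lay above 0 and 27 below, or 67.9% above, where 53.1% of all expressed loci did. Of the expressed pericentromeric transposable element genes 81.4% lay above 0. Of the 84, 15 (17.9%) stood 4-fold or more above their Col-0 level, against a background of 3.44% of the 9562 expressed loci. Another 4 (4.76%) stood 4-fold or more above their Ler-0 level, against a background of 2.22%. These 2 counts depend on the constant added to FPKM: they were 26 and 10 with 0.1 and 2 and 2 with 5. The expressed pericentromeric loci had nearly the same shares, 17.5% and 4.94%, so these are not particular to the arms. Over the 38 expressed arm loci without a near-identical copy the shares were 5.26% and 2.63%, near the background. Of the 84, 68 reached FPKM 1 in Ler-0, 53 in Col-0 and 37 in both. A locus that reached it in a single library had its direction largely set by the filter.

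The median over the 84 was 0.55, where all expressed loci had 0.06 and the 263 expressed pericentromeric loci 0.89. Over arm loci with any read, most of them near silence, it was -0.014. The centring alone puts a locus of equal FPKM at -0.062, so the negative sign does not mean higher levels in Col-0. The expressed loci were spread over both arms of all chromosomes. There were 15 of 78 on the left and 13 of 81 on the right arm of chromosome 1, 6 of 22 and 14 of 71 on chromosome 2, 8 of 59 and 8 of 42 on chromosome 3, 3 of 15 and 11 of 84 on chromosome 4, and 2 of 40 and 4 of 63 on chromosome 5. On the left arm of chromosome 2 all 6 expressed loci stood higher in Ler-0, with a median of 1.93. All 6 lie in the run of neighbouring loci described below and reached FPKM 1 in Ler-0 alone, so the filter set their direction.

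**Figure D1:**
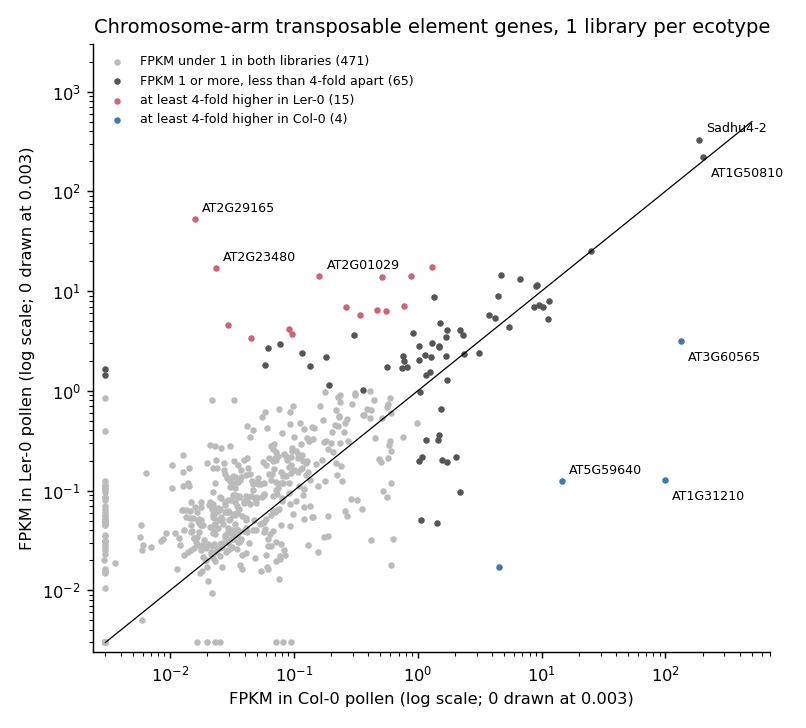
FPKM of each of the 555 chromosome-arm transposable element genes in the Col-0 library (x axis, log scale) and the Ler-0 library (y axis, log scale), with values of 0 drawn at 0.003 and the line of equal FPKM. Most loci sit under FPKM 1 in both libraries, 15 expressed loci are 4-fold or more higher in Ler-0 (red) and 4 are so in Col-0 (blue).

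Several of the most abundant arm loci stood at similar levels in the ecotypes. AT1G50810 (chromosome 1, 18828868 to 18832972, plus strand), whose primer motif lies 40 bases before its start between repeats of 301 bases at 99.7% identity, stood at 203 FPKM in Col-0 (interval 201 to 204) and 222 FPKM in Ler-0 (221 to 224). The ratio was 1.097 (1.09 to 1.11), and its reads made up 29.4% and 38.1% of all arm reads. Its flanking genes AT1G50800 (0.0183 and 0.165 FPKM) and AT1G50820 (0.791 and 0.135) were low in both. AT1G50810 has 2 near-identical copies in pericentromeres. AT2G15650, at 97.5% identity, stood at 67.4 FPKM in Col-0 and 221 FPKM in Ler-0, and AT1G35115 at 24.3 and 30.2. How reads that match several copies were counted is not given in the sources used here, so the level of a single copy is uncertain.

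AT4G21420 (chromosome 4, 11405812 to 11407512) stood at 25.2 FPKM in both libraries, on 3276 and 3807 reads, with a ratio of 0.999 (0.953 to 1.05) and no near-identical copy. AT4G20730 stood at 9.15 FPKM in Col-0 and 11.4 FPKM in Ler-0, and AT2G41580 at 11.5 and 7.90, also without a copy by the same rule, although shorter loci match within AT4G20730. AT4G01980 (9.09 and 11.4 FPKM) and AT4G19310 (6.74 and 13.4 FPKM) have copies. Loci joined directly or through others by such matches form a copy set. All 3 loci of the AT4G19310 copy set on the arms, the other two being AT1G52087 (1.70 and 3.46 FPKM) and AT4G19320 (1.71 and 4.09 FPKM), were higher in Ler-0, as were the 6 in pericentromeres.

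Sadhu elements, short non-autonomous retroposons known for expression that varies between natural accessions, were expressed at every arm locus so named. Sadhu4-2 (AT1G03420, chromosome 1, 846664 to 847739, plus strand) stood at 187 FPKM in Col-0 (15414 reads) and 329 FPKM in Ler-0 (31491 reads), with a ratio of 1.76 (1.72 to 1.79). It shares 1020 bases with 2A6 (AT1G03410) on the other strand, which was given 15451 and 31510 reads, nearly the same numbers. Without a stated use of strand, reads of the pair cannot be told apart.

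The other arm loci of the family were lower. SADHU7-1 (AT3G13438) stood at 4.66 FPKM in Col-0 and 14.5 FPKM in Ler-0, with a ratio of 3.11 (2.78 to 3.48). It shares 1075 bases with AT3G13440 on the other strand, so its reads are uncertain too. SADHU6-1 stood at 3.77 and 5.77 FPKM, SADHU8-1 at 1.48 and 2.80, SADHU5-1 at 1.03 and 2.84, SADHU1-2 at 0.769 and 1.97 and SADHU10-1 at 0.568 and 1.71. All 7 arm loci were higher in Ler-0, with FPKM ratios from 1.53 to 3.11, and 0 reached 4-fold. Of the 9 in pericentromeres 6 were higher in Ler-0, and SADHU1-1 lay furthest the other way, at 3.22 FPKM in Col-0 against 0.332.

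**Figure D2:**
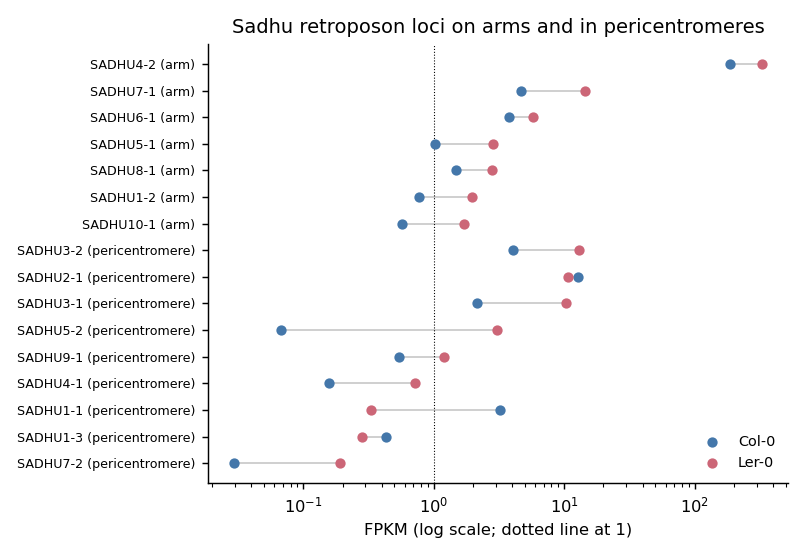
FPKM (log scale) of the 7 arm and 9 pericentromeric loci named Sadhu in the Col-0 (blue) and Ler-0 (red) libraries, 1 point per library. All 7 arm loci have the higher value in Ler-0, from 1.71 to 329 FPKM, while 6 of the 9 pericentromeric loci do.

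The annotation names the superfamily of few other arm loci. RE2 (AT4G02960), a Copia LTR retrotransposon, stood at 0.0295 FPKM in Col-0 and 0.134 FPKM in Ler-0, on 10 and 53 reads. A second Copia locus, AT3G20085, had 0 reads in both, and the Mutator locus AT5G43015 stood at 0.0263 and 0.0272 FPKM. For the other 545 loci no superfamily is named, so the account that follows goes by locus and by sequence likeness.

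A pair of near-identical loci with the primer motif made up much of the arm reads in Col-0 and almost none in Ler-0. AT3G60565 (chromosome 3, 22383922 to 22389906, minus strand) stood at 133 FPKM in Col-0 (60970 reads) and 3.14 FPKM in Ler-0 (1672 reads), with a ratio of 0.0236 (0.0224 to 0.0248). AT1G31210 (chromosome 1, 11148254 to 11152501, minus strand) stood at 99.6 FPKM in Col-0 (32367 reads) and 0.127 FPKM in Ler-0 (48 reads), with a ratio of 0.00128 (0.000940 to 0.00169). The 2 are 99.8% identical over the whole of AT1G31210, and the 90 bases printed above, with the primer motif 38 bases before each start, are the same in both. Reads may have been shared between them, so the sum is firmer than either value: pooled FPKM was 119 in Col-0 against 1.89 in Ler-0. They held 28.2% and 15.0% of the arm reads in Col-0, but 0.785% and 0.0225% in Ler-0. The gene nearest to AT3G60565, AT3G60560 at 1144 bases, had 0 FPKM in both libraries. On the other side, at 1341 bases, the beta-expansin EXPB5 had the reverse order, 96.4 FPKM in Col-0 against 216 in Ler-0.

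The other 2 loci past 4-fold in this direction were AT5G59640 and AT2G38520. AT5G59640 (chromosome 5, 24025992 to 24030772) stood at 14.5 FPKM in Col-0 (5300 reads) and 0.125 FPKM in Ler-0 (53 reads), with a ratio of 0.00860 (0.00643 to 0.0113). Its pericentromeric copies were also higher in Col-0, AT5G33234 at 4.20 FPKM against 0.102 and AT3G42305 at 7.07 against 1.36. AT2G38520 (chromosome 2, 16125919 to 16126578), which has no near-identical copy and carries the primer motif 112 bases before its start, stood at 4.54 FPKM in Col-0 (229 reads) against 1 read in Ler-0, with a ratio of 0.00375 (9.47e-05 to 0.0211). LTP2, a lipid transfer protein gene 1800 bases to its right, was likewise higher in Col-0, at 20.2 FPKM against 3.76.

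Loci with the next lowest ratios were weakly expressed, from 1.06 to 2.20 FPKM in Col-0, and less than 4-fold apart on the log2(FPKM + 1) scale, which understates ratios of low loci. AT3G60935 stood at 2.20 FPKM in Col-0 and 0.0971 FPKM in Ler-0, AT4G32215 at 2.03 and 0.219, AT5G14810 at 1.44 and 0.0471, AT3G60930 at 1.71 and 0.194, AT1G20390 at 1.56 and 0.204 and AT1G62460 at 1.06 and 0.0511. Copies did not always follow. AT4G09455, the copy of AT1G62460, was also higher in Col-0 (1.53 FPKM against 0.0307), whereas AT4G06604, the copy of AT3G60935, was higher in Ler-0 (1.16 FPKM against 0.0974).

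**Figure D3:**
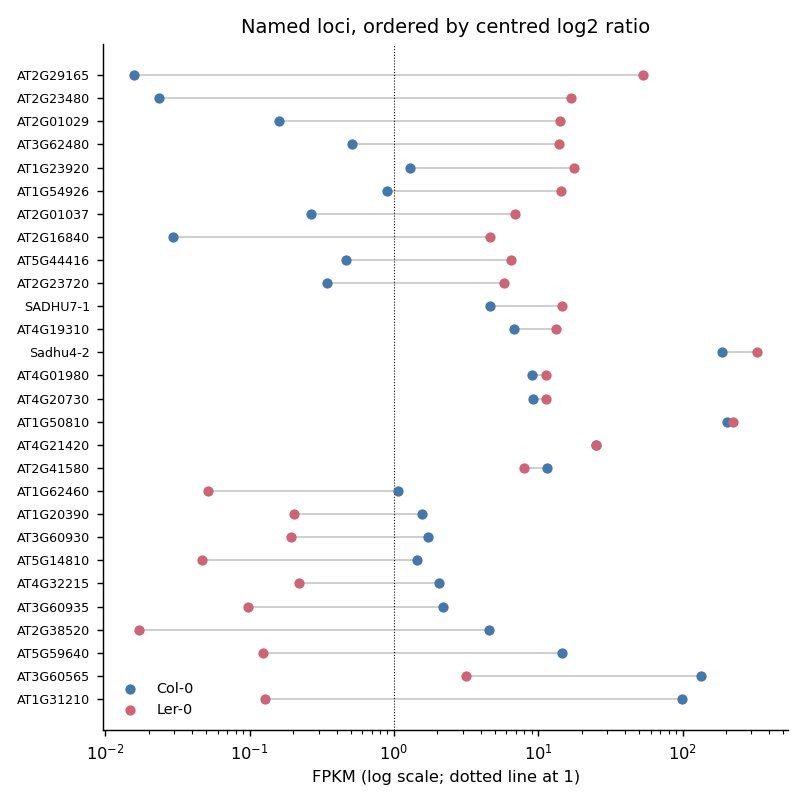
FPKM (log scale) in the Col-0 (blue) and Ler-0 (red) libraries for the 28 arm loci named by rule, ordered by the centred log2 ratio, 1 point per library. AT2G29165 at the top spans from 0.0158 FPKM in Col-0 to 52.9 in Ler-0, and AT1G31210 at the bottom from 99.6 in Col-0 to 0.127 in Ler-0.

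Among loci higher in Ler-0, the widest gap was at a locus with the primer motif that Col-0 hardly expressed. AT2G29165 (chromosome 2, 12539812 to 12541464, minus strand), with the motif 13 bases before its start between repeats of 340 bases at 100% identity, had 7769 reads and 52.9 FPKM in Ler-0 against 2 reads and 0.0158 FPKM in Col-0. The ratio was 3340.2 (924 to 27586), its width set by the 2 Col-0 reads. Its 4 relatives by sequence, all pericentromeric, had the same order: AT5G26618 stood at 123 FPKM in Ler-0, AT1G46120 at 72.5, AT3G30815 at 4.60 and AT3G46375 at 1.07, each under 0.1 in Col-0. AT2G29165 is 98.3% identical to AT1G46120 and 97.8% to AT5G26618, so reads may have been divided among them. The pseudogene AT2G29160 (0.0816 and 0.216 FPKM) and the gene AT2G29170 (0.125 and 0.108) on its sides were low in both ecotypes.

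AT2G23480 (chromosome 2, 10001893 to 10004688, plus strand) had 4205 reads and 16.9 FPKM in Ler-0 against 5 reads and 0.0234 FPKM in Col-0, with a ratio of 723 (309.6 to 2228). All 6 loci of its copy set, 5 of them pericentromeric, were 4-fold or more higher in Ler-0, from 6.19 to 47.5 FPKM. In Col-0 none of the 6 passed 0.0411 FPKM. Where they match, AT2G23480 is 96.2% to 97.1% identical to 4 of the others, so reads may have been divided among them. AT3G62480 stood at 0.510 FPKM in Col-0 and 13.9 FPKM in Ler-0, 27.3 times as much (18.1 to 43.4), though it has 3 near-identical copies. Of the 4 loci 3 were higher in Ler-0, but AT4G32205 had the reverse order, at 10.3 FPKM in Col-0 against 6.99. Pooled over the 4, FPKM was 1.61 in Col-0 against 2.90 in Ler-0, with a ratio of 1.80 (1.64 to 1.98). AT2G16840, which has no copy, stood at 0.0296 FPKM (2 reads) and 4.60 (362 reads), with a ratio of 156 (42.8 to 1290.0).

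A copy set spread over several arms stood higher in Ler-0 nearly throughout. It has 13 loci, 6 on arms and 7 in pericentromeres, of which 12 were higher in Ler-0, 7 of them 4-fold or more. On the arms AT1G23920 stood at 1.29 FPKM in Col-0 and 17.6 FPKM in Ler-0, AT3G47310 at 1.36 and 8.74, AT4G28970 at 0.779 and 7.03, AT5G44416 at 0.468 and 6.51 and AT2G23720 at 0.341 and 5.81. The short AT3G47320 had 5 and 7 reads. Pooled over the 13, FPKM was 0.573 in Col-0 against 7.02 in Ler-0, with a ratio of 12.2 (11.6 to 12.9).

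How closely these copies resemble each other is illustrated by a stretch of 60 bases at chr1:8454360-8454419 (plus strand) in AT1G23920. It has the most differences among the stretches tried in which every copy differs from AT1G23920 at a few bases. Stretches where a copy matched AT1G23920 fully or differed at more bases were left out. The chosen stretch lies at chr2:10092658-10092717 (minus) in AT2G23720, chr3:17430159-17430218 (plus) in AT3G47310, chr4:14287371-14287430 (minus) in AT4G28970 and chr5:17900602-17900661 (minus) in AT5G44416. Capitals mark bases that differ from AT1G23920.
AT1G23920: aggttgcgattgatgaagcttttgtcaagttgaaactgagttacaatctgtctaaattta
AT2G23720: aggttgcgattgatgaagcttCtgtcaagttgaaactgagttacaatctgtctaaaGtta
AT3G47310: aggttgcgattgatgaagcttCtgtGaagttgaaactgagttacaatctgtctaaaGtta
AT4G28970: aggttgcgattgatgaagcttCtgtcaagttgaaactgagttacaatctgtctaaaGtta
AT5G44416: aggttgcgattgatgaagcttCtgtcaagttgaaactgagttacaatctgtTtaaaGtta

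With 2 or 3 differences from AT1G23920 in these 60 bases, and 0 between AT2G23720 and AT4G28970, reads from there could align to several of them. Which of the 5 gave the RNA is therefore uncertain, while the sum is less so.

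**Figure D4:**
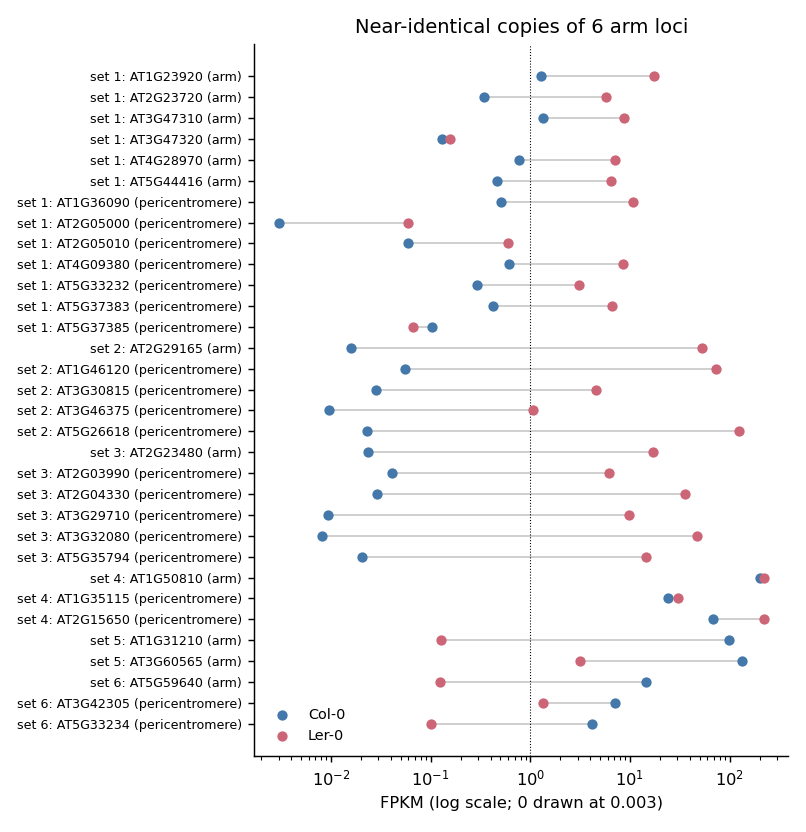
FPKM (log scale, 0 drawn at 0.003) in Col-0 (blue) and Ler-0 (red) of the loci in 6 sets joined by near-identical copies, each set holding at least 1 arm locus named in the text. Sets 1 to 3 (those of AT1G23920, AT2G29165 and AT2G23480) are higher in Ler-0 at nearly every locus, set 4 (AT1G50810) is similar in both libraries except at AT2G15650, and sets 5 and 6 (AT1G31210 and AT5G59640) are higher in Col-0.

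Near-identical copies were common among the loci that differed. Of the 555 arm loci 230 have such a copy, and of the 84 expressed 46 do. Among these 46, 13 (28.3%) were 4-fold or more higher in Ler-0 while 3 (6.52%) stood so in Col-0, with a median of 0.84. Over all expressed loci the shares were 3.44% and 2.22%. The 38 without a copy lay near that background, with a median of 0.51. Of these 38, 2 (5.26%) were 4-fold or more higher in Ler-0 while 1 (2.63%) stood so in Col-0. Those 2 are AT2G16840 and AT2G01029, and the latter is long enough that shorter loci match within it. With each set of copies pooled into 1 entry, 54 entries were expressed, of which 4 stood past 4-fold on the Ler-0 side and 3 on the Col-0 side. Of the 84 expressed loci 6 overlap another listed locus, among them AT1G65347, which shares 794 bases with UBQ13, and AT3G60965, which shares 9903 with AT3G60961.

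The left end of chromosome 2 carried a run of 9 neighbouring transposable element genes that were all higher in Ler-0. They lie from 10478 to 67139, close to the rRNA locus AT2G01010, at the end of the arm that carries a cluster of rRNA genes. Summed over the 9, there were 360 reads in Col-0 and 20396 reads in Ler-0, an FPKM ratio of 48.7 (43.9 to 54.2), and the ratios of single loci ran from 3.33 to 88.0. Of the 9, 6 were expressed, all in Ler-0 alone. AT2G01029 (28465 to 38652) stood at 0.160 FPKM in Col-0 and 14.1 FPKM in Ler-0, AT2G01037 (58705 to 64872) at 0.265 and 6.93, and AT2G01034 (43427 to 48350) at 0.0956 and 3.71. These 3 were 4-fold or more higher in Ler-0. AT2G01040 (0.0768 and 2.94 FPKM), AT2G01028 (0.0620 and 2.66) and AT2G01026 (0.0585 and 1.81) were expressed but less than 4-fold apart on the log2(FPKM + 1) scale. The remaining members of the run, AT2G01031 (0.234 and 0.911), AT2G01024 (0.0330 and 0.805) and AT2G01022 (0.0439 and 0.146), stayed under FPKM 1. By near-identical stretches, loci of the run link up with AT1G54926 on chromosome 1 and others into a set of 237 loci, 21 of them on arms, so the reads of single loci are uncertain.

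On the side of the telomere the rRNA loci were higher in Ler-0 too. AT2G01010 stood at 907 FPKM in Col-0 and 2784 FPKM in Ler-0, AT2G01020 at 2.57 and 51.9, and the coding locus AT2G01021 between them and the run at 8.80 and 128. All rRNA loci together took 0.355% of the reads in Col-0 against 1.096% in Ler-0, after rRNA depletion of both samples, and their part in the result was not tested. On the other side the next coding genes were near silence in both, AT2G01050 at 0.0254 and 0.109 FPKM and AT2G01060 at 0.0920 and 0.142. Within 100000 bases of the other chromosome ends there was 1 arm locus, on the left of chromosome 5, and it was not expressed. Without the run, 12 of 78 expressed arm loci were 4-fold or more higher in Ler-0 and the median was 0.51. Over all expressed loci 3.44% were so. Several of the 12 belong to the same copy set, so they are not separate cases.

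**Figure D5:**
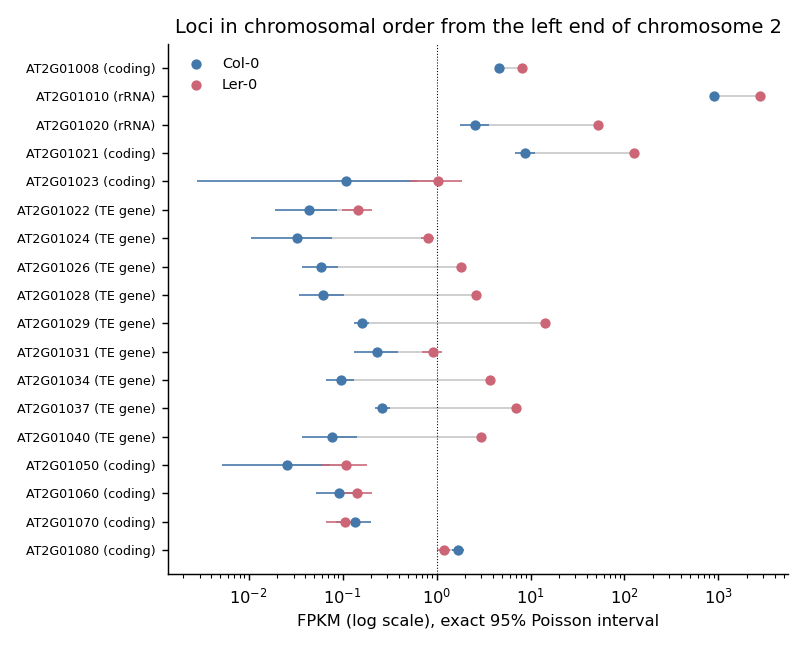
FPKM (log scale) with exact 95% Poisson intervals of the loci at the left end of chromosome 2, in chromosomal order from top to bottom, in Col-0 (blue) and Ler-0 (red). The 9 transposable element genes have their higher value in Ler-0, and of the 4 coding genes plotted after them AT2G01050, AT2G01060 and AT2G01070 lie under FPKM 1 while AT2G01080 stands at 1.71 (Col-0) and 1.197 (Ler-0).

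The chromosome 2 run also held several of the primer sites. AT2G01026, AT2G01028 and AT2G01034 share a site, which differs in the bases around the motif from that of AT2G01040. The site of AT2G01040 lies at chr2:67161-67182 and that of AT2G01034 at chr2:48484-48505, both on the minus strand of TAIR10.1. Capitals mark the motif in the 22 bases that face miR845b.
AT2G01034: tttcaagtTGGTATCAGAGCat
AT2G01040: tttcaattTGGTATCAGAGCga

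Counted over the length of the microRNA with no gap, the site of AT2G01040 had 2 mismatches to miR845b, the lowest number at any of the 77 arm loci with the motif, and shared that number with AT4G10580 (0.613 FPKM in Col-0, 0.0180 in Ler-0). The site of AT2G01034 had 5. Over all 77 loci the better of miR845a and miR845b left 2 to 9 mismatches, with a median of 6. The 13 expressed loci with the motif had 2 to 7, with a median of 5.

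Expression of the loci with the primer motif differed in direction. Of the 13, 7 lay above 0 and 6 below, with a median of 0.07. The 71 expressed loci without it had 50 above, 21 below and a median of 0.56. Only 2 of the 13 reached FPKM 1 in both libraries, against 35 of the 71. For the rest of the 13 the filter largely set the direction, so the split says little about the motif. Past 4-fold were AT2G29165 and AT2G01034 on the Ler-0 side and AT1G31210, AT3G60565 and AT2G38520 on the Col-0 side. These are few independent cases, since 4 of the 7 above 0 lie in the chromosome 2 run and AT1G31210 and AT3G60565 are copies of each other. The 3 other loci above 0 were AT1G50810, AT2G29165 and AT3G23725 (0.115 FPKM in Col-0, 2.38 in Ler-0).

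A further 2 loci were listed at 0 reads in Col-0 and expressed in Ler-0. AT1G18930 had 55 reads and 1.65 FPKM, at least 15.8-fold higher than the floor of 3 reads in Col-0, and AT3G50755 had 62 reads and 1.46 FPKM, at least 17.8-fold higher than the same floor. AT1G18930 belongs to a set of 25 loci joined by near-identical stretches, so its reads are uncertain. No expressed arm locus had 0 reads in Ler-0.

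The nearest genes beside the arm loci past 4-fold were not past it themselves. The nearest gene that is not a transposable element gene was at least 4-fold apart in the same direction for 0 of the 15 loci higher in Ler-0, at a median distance of 2772 bases, and for 0 of the 4 higher in Col-0. Over all 84 expressed arm loci it was so for 0, and 1 nearest gene was 4-fold apart in the opposite direction: AT3G60920, 996 bases from AT3G60930, stood at 1.40 FPKM in Col-0 and 9.03 FPKM in Ler-0. For scale, 3.44% of the 9562 expressed loci were past 4-fold on the Ler-0 side and 2.22% on the Col-0 side. Some nearest genes were under FPKM 1 in both libraries, where the added constant of 1 keeps a locus below 4-fold. Examples are RUS4 beside AT2G23480 (0.0621 FPKM in Col-0, 0.133 in Ler-0) and AT2G29170 above. These counts of 0 therefore do not show whether neighbouring genes follow the arm loci. Of the second flanking genes, on the side farther off, LTP2 beside AT2G38520 was past 4-fold in the same direction as its neighbour. At AT1G54926, which stood at 0.888 FPKM in Col-0 and 14.3 FPKM in Ler-0, the gene AT1G54930 to its right stood at 0.0372 and 0.160.

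Arm loci under FPKM 1 in both libraries also held more RNA in Ler-0. Their pooled level was 0.0936 FPKM in Col-0 against 0.138 in Ler-0, while protein-coding loci under the same limit had 0.220 and 0.254 and pericentromeric transposable element genes 0.0559 and 0.113. Levels next to the ends of the windows were low. Of the 10 arm loci nearest a window 0 were expressed, with at most 0.0951 FPKM in Col-0 against 0.547 in Ler-0. Of the 10 nearest on the inner side 1 was, AT3G46487, at 0.319 and 2.40.

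The sample and the silencing genes are given for reference. Reads over the listed loci summed to 76488187 in Col-0 against 88952509 in Ler-0, so that FPKM 1 at 1 kb rested on 76.5 and 89.0 reads. All 7 vegetative cell markers and all 5 sperm cell markers were expressed, and their summed FPKM in Col-0 was 24188 for the vegetative and 186 for the sperm cell, and in Ler-0 it was 21251 and 286. All 5 green tissue markers were expressed too (summed FPKM 48.8 and 54.1), as were 2 of 4 floral organ markers (2.48 and 3.63), while 0 of 4 tapetum markers were (1.07 and 0.560), and no marker was at 0 reads. Their part in the levels of the arm loci was not tested.

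Of 26 genes of transposon silencing 11 were expressed, of which 0 stood past 4-fold on the Ler-0 side and 1 on the Col-0 side. That one was the CG methyltransferase MET1, at 12.8 FPKM in Col-0 against 1.24 in Ler-0. DDM1 stood at 24.2 and 16.9 FPKM, the histone methyltransferases SUVH5 at 1.51 and 2.10, SUVH6 at 7.13 and 4.61 and ATXR5 at 4.31 and 4.37, and the methylcytosine-binding VIM1 at 1.33 and 0.268 and VIM3 at 1.33 and 1.59. The silencing factors MOM1 (5.81 and 4.91 FPKM) and MORC6 (2.56 and 3.19) and the largest subunits of RNA polymerases IV and V, NRPD1 (0.714 and 1.06) and NRPE1 (1.94 and 2.16), were less than 2-fold apart. The relation of these levels to those of the arm loci was not tested.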

How the data were processed

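Per the file headers and labels, the deposited values are FPKM per locus, computed by the authors, in 1 table per library. Subread and TAIR10 are the tool and build listed per the submitters' processing notes. Not given in the sources used here are its version, the rule for reads that match several places, the use of strand and the counting of reads or pairs. TAIR10 is a Col-0 genome, so Ler-0 reads that differ from it, or come from copies it lacks, may be missed or placed at other copies. FPKM times locus span (end minus start) was a whole multiple of 1 step in 100% of values, within 0.01, which gave the reads.

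Computed here were exact 95% Poisson intervals on FPKM, exact binomial intervals on ratios and shares, floors of 3 reads, and the log2 ratio with a pseudocount of 1, centred on 6656 genes. Amplified reads are not independent molecules. The planned description assumed no counts; intervals became possible once reads were recovered. The procedure was tested on simulated reads. Of the 33322 loci, 32834 matched TAIR10.1 by locus tag. BLAST 2.17.0 was used to find near-identical copies among all listed loci (95% identity over 50% of the locus) and joined into sets by shared links. Other work used Python 3.11.15, pandas 2.3.3, numpy 2.4.6, scipy 1.17.1 and matplotlib 3.10.9.

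Members, lists, windows and marker genes were chosen with earlier results of these data known. Named by rule were, among expressed members, the 10 highest and 10 lowest ratios, the 10 of highest mean FPKM and the 2 of highest mean FPKM per annotated superfamily, 28 in all, with the expressed silencing genes. Other loci named (copies, neighbours, the chromosome 2 run, loci with the motif, loci at 0 reads, the remaining annotated loci) were chosen after their values were seen. Alternatives covered the pseudocount, centring, scaling, filter, fold, windows, overlaps and copies.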

Additional observations from a re-analysis of the deposited data

How the results depend on the processing

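Leaving out the chromosome 2 run was chosen after seeing the data. The 84 expressed loci became 31 with a filter of FPKM 5, 38 without near-identical copies and 54 with copies pooled, all by construction smaller sets. The 15 at least 4-fold higher in Ler-0 became 26 with a pseudocount of 0.1, 2 with 5, 2 without copies, 4 with copies pooled and 28 at 2-fold. The 4 higher in Col-0 became 10 with a pseudocount of 0.1, 2 with 5, 1 without copies and 11 at 2-fold. The median of 0.55 became 0.84 with a pseudocount of 0.1 and 0.22 with 5. It was -0.014 with no filter, where most loci are near silence. The centring alone puts a locus of equal FPKM at -0.062, so that sign does not mean higher levels in Col-0. The read share of 0.282% in Col-0 and 0.239% in Ler-0 became 0.259% and 0.198% without overlapping loci, 0.0553% and 0.0878% without copies, where the order of the ecotypes turns, and 0.288% and 0.246% over reads of protein-coding loci. Scaling, centring, windows widened by 1 Mb and leaving out the chromosome 2 run moved no count by over 1.5 times. Of the 28 named loci, a pseudocount of 0.1 put 6 more past 4-fold, a pseudocount of 5 took 10 below it, and 0 reversed with these pseudocounts. AT4G21420, whose levels were nearly equal, went from -0.063 to 0.038 when centred on genes at FPKM 10 or more. No paired analysis was possible because Col-0 and Ler-0 have 1 library each. Low loci rest on few reads, and counts of loci with copies may hold shared reads.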
